A study of Mus musculus with 2 samples.

Results

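DATP-like cells of the IL-1β-treated alveolar organoids, which are high in transitional-state markers among the cells that still carry the type 2 surfactant gene Sftpc, are described here. They numbered 291 of 1942 base cells, of 3066 cell barcodes in the IL-1β library and of 5167 barcodes in both libraries. A base cell had more unique molecular identifiers (UMIs, one for each captured mRNA molecule) of Epcam, Cdh1, Cldn3, Cldn7 and Krt18 together than of the stromal genes Col1a2, Col3a1, Sparc and Dcn. It also had at most 2 UMIs of the type 1 genes Hopx, Rtkn2 and Akap5, and at least 1% of its UMIs from Sftpc. The cells were selected on the mean of ln(1 + UMIs per 10000) of Krt8, Krt19, Cldn4, Sprr1a and Sfn, and the top 15% of base cells were taken. The other 1651 base cells and 305 AT1-like cells of the same library, epithelial by the same sums and with at least 4 UMIs of the type 1 genes, served for comparison. The rest of the library comprised 686 barcodes that were not epithelial by these sums, 97 epithelial cells with less Sftpc and 36 with a type 1 sum of 3.

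AT2 cells were sorted from tamoxifen-treated SPC-CreERT2;R26RTomato mice (the reporter is also written R26RtdTomato), in which the Sftpc promoter drives the recombinase and Tomato labels the AT2 lineage. They were grown into organoids together with lung stromal cells for 2 weeks according to the submitters' design text, whereas the study's figure legend gives a later day of culture. From organoids given IL-1β, an inflammatory cytokine, 1 library of 3066 barcodes and 41220175 UMIs was made, and from control organoids given PBS 1 library of 2101 barcodes and 33965848 UMIs, and the genotype, tamoxifen, co-culture and dissociation were the same for both. Whether cells of several animals were pooled is not stated in the sources used here. With 1 library for each condition no test was possible, and all 95% intervals cover counting error only.

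AT2 cells secrete surfactant and are the progenitors of the thin, flat AT1 cells across which gas is exchanged. On the way from one to the other, cells pass through a transitional state that is rich in keratins, tight junction genes and stress genes, known after injury as damage-associated transition progenitors (DATPs). IL-1β signals through the receptor IL1R1 to NF-kB, a transcription factor of inflammatory genes.

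DATP-like cells had a median of 10751 UMIs and 3143 genes, against 11420 and 3133 in the other base cells and 11966 and 3521 in AT1-like cells. Mitochondrial genes took a median of 3.98% of their UMIs, ribosomal protein genes 12.7% and Sftpc 5.56%. In the other base cells these shares were 4.22%, 14.0% and 7.05%. The median depth of DATP-like cells was thus below that of both other classes. Their median doublet score was 0.136, against 0.130 in the other base cells. In 1 of the 291 cells the cycling genes were found, a share of 0.344%, against 13 cells (0.787%) of the other base cells. The libraries shared 11 barcodes, 1 of them that of a DATP-like cell.

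RNA released from broken cells gives UMIs in cells that do not make it, and its level was read from 456 stromal cells, those with few type 1 UMIs and less than 1% Sftpc. Sftpc gave 3085 UMIs per 1000000 UMIs of the class (CPM) in these stromal cells and 58988 in DATP-like cells. Conversely, the stromal gene Mgp gave 28367 CPM in stromal cells, 1396 in DATP-like cells and 1323 in the other base cells. The 14 stromal markers summed to 2087 CPM in DATP-like cells, 1850 in the other base cells, 2861 in AT1-like cells and 37336 in all cells that were not epithelial by sums. None of the 14 was at 0, and of the 10 with enough UMIs 1 was past 1.5-fold, Sparc, at 378 CPM against 198. Sparc gave 1304 CPM in AT1-like cells, and the collagen gene Col1a2 gave 30.4 CPM in DATP-like cells against 31.1 in the other base cells. Of the immune markers 6 of 10 were at 0, among them Ptprc and Tyrobp, and the most abundant, Cd68, gave 47.0 CPM. The immune list summed to 51.5 CPM against 44.4 in the other base cells. The 6 endothelial markers summed to 3.01 CPM against 1.57, with 4 at 0 and Pecam1 the most abundant at 2.41 CPM. Basal Krt5, Krt14 and Trp63 and ciliated Ccdc153 and Dnah5 were at 0 in DATP-like cells. The 8 ciliated markers summed to 59.9 CPM against 47.5 in the other base cells, with 2 at 0 and Tppp3 at 44.8 CPM. The 8 basal markers summed to 8.43 CPM against 11.9, with 5 at 0 and Aqp3 at 6.62 CPM. Of 7 neuroendocrine and tuft markers 6 were at 0, and Dclk1 gave 70.4 CPM against 50.6. A count of 0 allows up to 3 UMIs here, or 0.903 CPM.

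The selection values of DATP-like cells ran from 0.906 to 2.48 with a median of 1.11, and the median of the other base cells was 0.544. The 10 cells just inside the cutoff had 0.906 to 0.915 and the 10 just outside 0.894 to 0.906. Just inside, cells held 4 to 16 Krt8 UMIs (median 6) and 1 to 5 Sfn UMIs, and Cldn4 was found in 2 and Sprr1a in 2 of the 10. Just outside, they held 2 to 18 Krt8 UMIs (median 5.5) and 1 to 6 Sfn UMIs, and Cldn4 was found in 4 and Sprr1a in 2. Such likeness follows from the ordering by these markers. When cells were thinned to 4600 UMIs each and chosen again, 210 of the 291 (72.2%) were kept. AT1-like cells had a median of 1.05, and 193 of 305 (63.3%) lay above the cutoff, as did 54 of the 97 epithelial cells with less Sftpc.

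**Figure D1:**
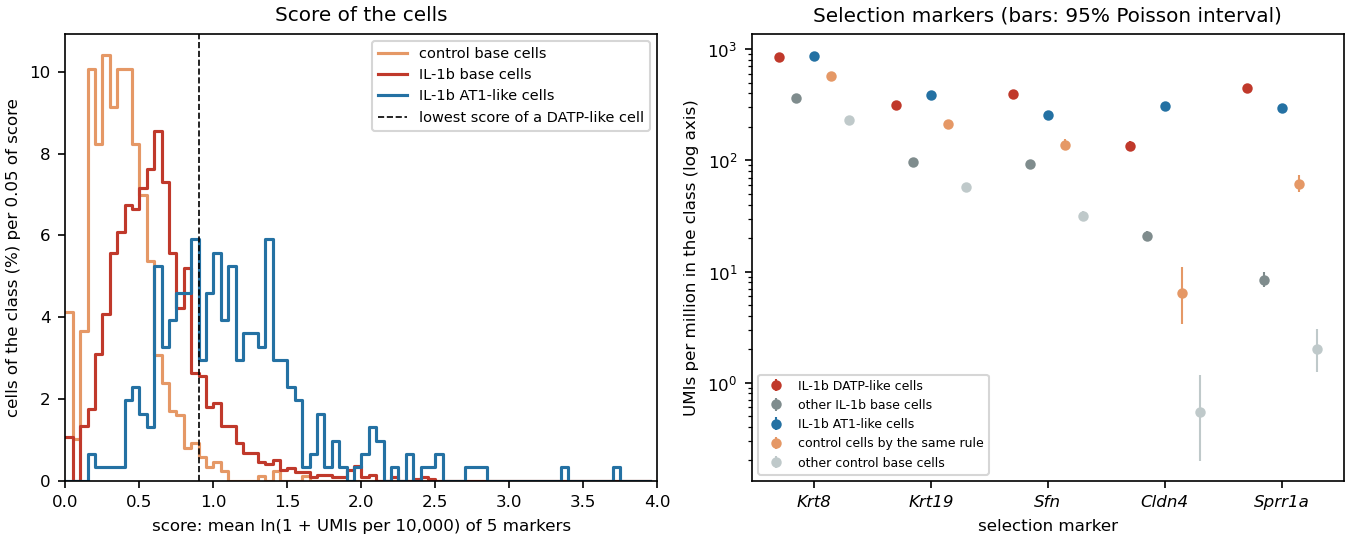
The left panel plots the selection value (score, mean ln(1 + UMIs per 10000) of the 5 markers) as percent of cells per 0.05 of score, and the right panel the level of each marker in CPM (log axis) with 95% Poisson intervals, in 5 classes of cells. DATP-like cells are the base cells right of the dashed line at 0.906, AT1-like cells with a median of 1.05 lie on both sides of it, and Cldn4 and Sprr1a are lowest in the other control base cells.

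The levels of the 5 markers are a description, since the cells were chosen by them. Krt8 (chr15:101996698-102004482), a keratin of simple epithelia, gave 856 CPM in DATP-like cells, 361 in the other base cells and 876 in AT1-like cells. Krt19 (chr11:100140810-100148665), another simple-epithelial keratin, gave 316, 97.4 and 388 CPM in the same order. Sfn (chr4:133600556-133602168), which encodes the 14-3-3 protein stratifin, gave 397, 93.5 and 258 CPM. These 3 were found in nearly every DATP-like cell, Krt8 in 99.3%, Krt19 in 92.8% and Sfn in 94.5%. In the 456 stromal cells, with a median of 15088 UMIs, they were found in 37.9%, 26.8% and 21.9%. Cldn4 (chr5:134945119-134946934), a tight junction claudin, gave 136, 20.9 and 307 CPM and was found in 57.4% of DATP-like cells, 20.8% of the other base cells and 10.3% of stromal cells. Sprr1a (chr3:92483952-92485895), a precursor of the cornified envelope of squamous cells, gave 449, 8.43 and 299 CPM. Sprr1a was found in 40.9% of DATP-like cells, 8.72% of the other base cells and 14.3% of stromal cells, so its share in the other base cells did not exceed that background. The top 5% of DATP-like cells held 61.7% of the level of Sprr1a.

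The number of markers found in a cell follows from the rule and is given as a description. Of the 291, 56 (19.2%) held a UMI of all 5 markers, 139 (47.8%) of 4, 92 (31.6%) of 3 and 4 (1.37%) of 2, whereas 6 of the 1651 other base cells (0.363%) held all 5. Cldn4 and Sprr1a were found together in 63 cells, Cldn4 without Sprr1a in 104, Sprr1a without Cldn4 in 56 and neither in 68. Of the gap in the selection value between the classes, Sfn made up 25.8%, Krt8 21%, Krt19 20.6%, Sprr1a 19.2% and Cldn4 13.4%.

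The promoters of both markers that divided the cells, Cldn4 and Sprr1a, and of Areg and Tnip3, the genes that the account below turns on most, are shown for the sequence upstream of these transcripts. Each window holds 250 bases before and 50 after the start in RefSeq (GRCm38.p6), written in the direction of the gene. Capitals mark matches on either strand to the AP-1 motif TGANTCA, the CRE TGACGTCA, the TATA box TATAAA or the kappa-B motif, GGGA and CC with any 4 bases between them. The windows are chr3:92485832-92486131 (minus strand) for Sprr1a, chr5:134946885-134947184 (minus strand) for Cldn4, chr5:91139349-91139648 (plus strand) for Areg and chr6:65590148-65590447 (plus strand) for Tnip3. The window of Tnip3 lies inside the GENCODE gene model, chr6:65525313-65634040.
Sprr1a: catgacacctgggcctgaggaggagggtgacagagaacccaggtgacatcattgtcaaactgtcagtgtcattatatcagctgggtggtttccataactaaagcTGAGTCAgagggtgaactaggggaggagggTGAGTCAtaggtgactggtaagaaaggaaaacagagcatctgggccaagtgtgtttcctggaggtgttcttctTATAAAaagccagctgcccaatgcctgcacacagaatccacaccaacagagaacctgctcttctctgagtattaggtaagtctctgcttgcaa
Cldn4: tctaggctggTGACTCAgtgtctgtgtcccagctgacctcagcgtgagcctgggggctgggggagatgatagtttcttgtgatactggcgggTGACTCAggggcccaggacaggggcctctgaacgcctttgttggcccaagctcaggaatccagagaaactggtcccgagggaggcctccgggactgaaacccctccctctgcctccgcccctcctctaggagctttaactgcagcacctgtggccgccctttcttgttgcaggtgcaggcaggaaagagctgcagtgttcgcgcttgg
Areg: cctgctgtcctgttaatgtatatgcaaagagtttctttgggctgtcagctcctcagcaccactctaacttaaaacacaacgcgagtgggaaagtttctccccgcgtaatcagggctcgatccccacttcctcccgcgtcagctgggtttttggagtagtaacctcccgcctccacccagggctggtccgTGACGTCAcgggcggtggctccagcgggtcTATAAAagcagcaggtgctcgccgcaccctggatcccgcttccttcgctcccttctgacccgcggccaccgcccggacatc
Tnip3: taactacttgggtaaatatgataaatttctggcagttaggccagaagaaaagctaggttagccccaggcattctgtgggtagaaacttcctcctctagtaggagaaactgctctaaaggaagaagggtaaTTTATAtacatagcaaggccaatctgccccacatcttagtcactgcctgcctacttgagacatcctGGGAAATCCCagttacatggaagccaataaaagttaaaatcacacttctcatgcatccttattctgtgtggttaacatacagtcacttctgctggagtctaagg

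Sprr1a had AP-1 letters 146 and 116 bases before the start and a TATA box at 43, and Cldn4 had AP-1 letters at 240 and 158. Of the 4 selection markers with a window, these 2 held the AP-1 letters, whereas Krt8 and Sfn did not. Areg had a CRE at 61 and a TATA box at 31, and Tnip3 a kappa-B match at 54 and a TATA box on the other strand at 120. Among all 32851 RefSeq windows, 7.81% held the AP-1 letters, 1.79% the CRE, 13.6% the TATA box and 20.7% the kappa-B letters. Of the 12 genes ranked higher below that have a window, 1 held the AP-1 letters, 2 the CRE, 5 the TATA box and 5 the kappa-B letters, and of the 9 ranked lower 0, 0, 1 and 2. These are matches of letters and not measured binding.

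Over the whole transcriptome, 524 of 9568 genes (5.48%) with at least 100 UMIs were at least 1.5-fold higher in DATP-like cells than in the other base cells, and 246 (2.57%) were at least 1.5-fold lower. Since cells chosen for some genes differ in others that vary with them, these counts describe the selected cells. The interval of the ratio was off 1 for 488 of the 524 and 159 of the 246, and it lay wholly past 1.5-fold for 122 and 43. The higher genes made up 68.1% of those past 1.5-fold. When the surfactant, lysozyme, mitochondrial and ribosomal protein genes were left out of the total, 332 were higher and 348 lower, or 48.8% higher. The median log2 ratio of all genes was 0.10 with all genes in the total and 0.01 without these, and log2 values below are to be read against the former.

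Among the 15 genes ranked highest were Tnip3, Areg, Atf3 and F3. Tnip3, which encodes a TNFAIP3-interacting protein that restrains NF-kB, gave 119 CPM in DATP-like cells and 21.4 in the other base cells, a ratio of 5.58 (interval 4.85 to 6.41). It was found in 44.0% of DATP-like cells, 15.4% of the other base cells and 20.6% of stromal cells, whose median depth was higher (15088 UMIs). Its level was 159 CPM in AT1-like cells and 13.6 in stromal cells. In the other base cells its level thus exceeded that of stromal cells, whereas its share did not. Areg, which encodes the EGF receptor ligand amphiregulin, gave 326 CPM against 96.0, a ratio of 3.39 (interval 3.15 to 3.66). Areg was lower in AT1-like cells, at 200 CPM, and gave 100 CPM in stromal cells. It was spread over many DATP-like cells, with a median cell at 1.70 UMIs per 10000 and 31.2% of its level in the top 5% of cells. The stress-response transcription factor Atf3 gave 54.8 CPM against 11.5, a ratio of 4.75 (interval 3.89 to 5.80), and 30.4 CPM in AT1-like cells. The coagulation initiator F3 (tissue factor) gave 65.3 CPM against 14.8, a ratio of 4.42 (interval 3.69 to 5.29), and 181 CPM in AT1-like cells. F3 was found in 31.6% of DATP-like cells, 14.3% of the other base cells and 32.2% of the deeper stromal cells. By level it gave 29.6 CPM in stromal cells, below DATP-like cells and above the other base cells.

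Also in this group were receptor, galectin, annexin and S100 genes. Tnfrsf12a, the receptor of the cytokine TWEAK, gave 250 CPM against 76.8, a ratio of 3.25, and Tnfrsf11b, the decoy receptor osteoprotegerin, gave 15 against 3.35, a ratio of 4.49. Lgals3 (galectin-3) gave 671 CPM against 212, a ratio of 3.17 (interval 3.01 to 3.34), and 765 CPM in AT1-like cells. Anxa1 (annexin A1) gave 620 against 226, a ratio of 2.75. S100a6 gave 292 CPM against 96.7 and S100a14 gave 112 against 36.9. Lgals3, S100a6 and Anxa1 were also abundant in the 456 stromal cells, at 519, 1494 and 215 CPM, whereas S100a14 gave 8.85 there. The other genes that the ranking named were Ndnf (78.6 CPM against 17.2), the polo-like kinase gene Plk2 (20.2 against 4.42), the formin gene Diaph3 (20.5 against 5.38) and the chloride channel family gene Clic5 (43.9 against 14.2), and each of these 4 was higher still in AT1-like cells. Plk2 gave 72.8 CPM in stromal cells.

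Retnla was named by the ranking but rested on 1 cell. It gave 109 CPM against 35.4, and a single DATP-like cell held 317 of its 361 UMIs. Without that cell the level was 13.3 CPM.

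Among the 10 genes ranked lowest were Lyz2, Pigr, Spink5 and Gjb1. Lyz2, the lysozyme gene of AT2 cells, gave 21646 CPM in DATP-like cells against 38754, a ratio of 0.559 (interval 0.554 to 0.563). Pigr, which encodes the receptor that carries immunoglobulin A across epithelia, gave 99.6 CPM against 233, a ratio of 0.427 (interval 0.381 to 0.478). The protease inhibitor gene Spink5 gave 113 against 250, a ratio of 0.454. The ribonuclease gene Rnase4 gave 377 CPM against 670, and the gap junction gene Gjb1 gave 30.1 against 67.0, a ratio of 0.449 (interval 0.363 to 0.551). The others were G0s2, an inhibitor of lipolysis (17.8 CPM against 44.9), Prmt8 (18.4 against 41.2), Cd177 (31.0 against 65.1) and Acoxl (23.2 against 48.6). All of these 9 genes were lower in DATP-like cells. The secretory gene Scgb3a1 gave 8.43 CPM against 76.5, where 1 of the other base cells held 712 of 1506 UMIs and the level without that cell was 40.4 CPM. It was found in 9.28% of DATP-like cells, 11.1% of the other base cells and 18% of stromal cells, so its shares were at or below the background.

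**Figure D2:**
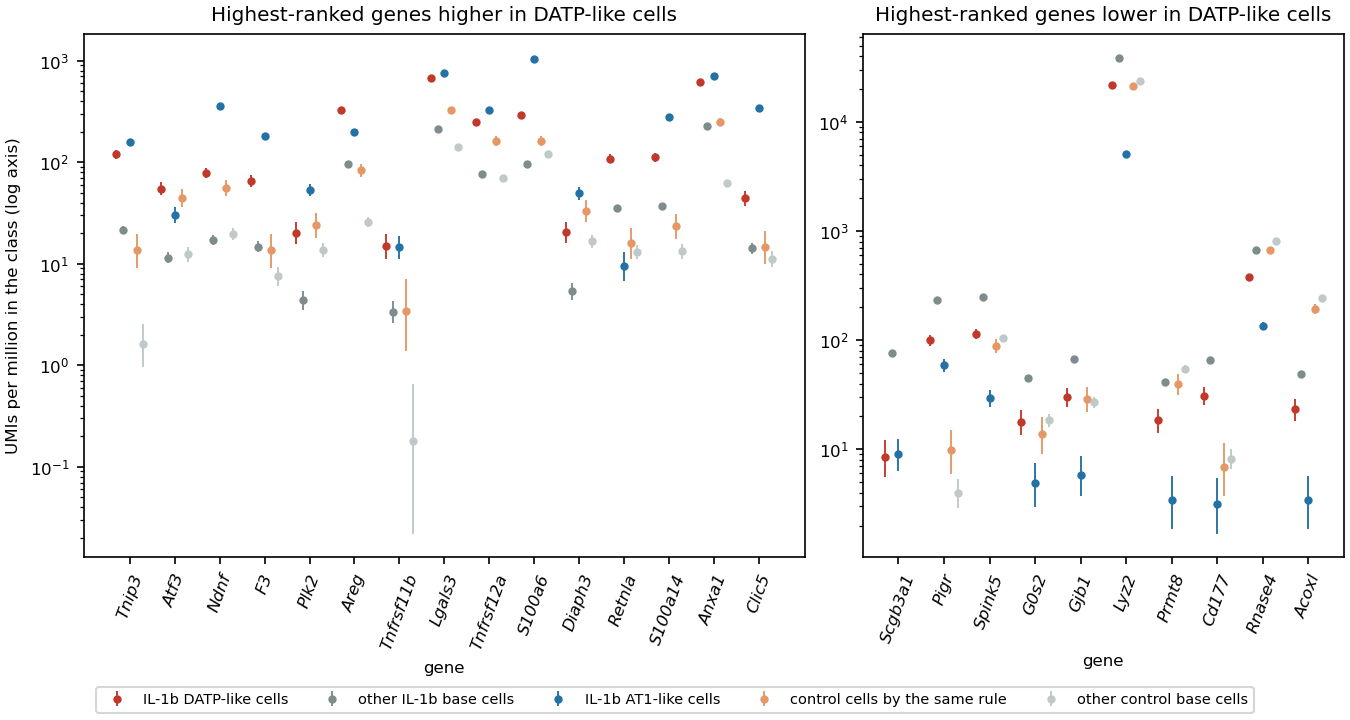
Levels (CPM, log axis) of the genes named by the ranking in DATP-like, other base and AT1-like cells given IL-1β and in control cells taken by the same rule and other control base cells, with bars for the 95% Poisson interval. Areg and Atf3 are highest in DATP-like cells, most of the genes in the left panel lie between the other base cells and AT1-like cells, and Lyz2 and Pigr lie below the other base cells.

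Of 20 other transitional-state genes, 14 had enough UMIs, and 11 of them were at least 1.5-fold higher in DATP-like cells and 0 lower, with a median log2 ratio of 0.99 against 0.10 for all genes. Over all genes 5.48% were higher and 2.57% lower, and the lists that follow are to be read against these shares. The 11 include Krt18, a gene of the rule, and Tnip3, Lgals3, Tnfrsf12a and Areg, which the ranking had named already. Keratin Krt7 gave 184 CPM against 72.8, with 600 in AT1-like cells, and Krt18, which the definition of base cells used, gave 651 against 339. The secreted chaperone gene Clu gave 1326 CPM against 718, the stress-response gene Ndrg1 47.0 against 21.1 and AW112010 162 against 80.6. Keratin Krt17 and Sprr1b, which also mark transitional states, had 0 UMIs in DATP-like cells.

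Among 19 surfactant and lamellar body genes, 3 were lower and 0 higher (2.57% and 5.48% over all genes), with a median log2 ratio of -0.19, and the list summed to 119629 CPM against 158889. The lower genes were Lyz2, Sftpa1 (surfactant protein A, 8287 CPM against 13218) and the AT2 chemokine gene Cxcl15 (4039 against 6516). Lipid transporter Abca3 gave 225 CPM against 278 and the lamellar body gene Lamp3 709 against 889, and neither was past 1.5-fold. Surfactant protein D gene Sftpd gave 5326 against 4580. Most genes of this list were within 1.5-fold, and Sftpc, on which base cells were chosen, was still 58988 CPM. Of 9 AT2 transcription factors and receptors, which include Sftpa1 again, 3 were lower and 0 higher. The growth factor receptor gene Fgfr2 gave 124 CPM against 188 and the transcription factor gene Elf5 gave 30.7 against 55.4.

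Most AT1 genes outside those of the definition that had enough UMIs were higher in DATP-like cells than in the other base cells. Of 6 early AT1 genes 5 were higher (Lmo7, S100a14, Clic3, Gprc5a and Emp2), with a median log2 ratio of 0.96, and the membrane glycoprotein gene Pdpn, at 70.7 CPM against 49.0, was not past 1.5-fold. Of 14 late AT1 genes 9 had enough UMIs, and 6 of these were higher and 0 lower, with a median of 0.94. The share higher over all genes was 5.48%. Ager, the receptor for advanced glycation end products that marks AT1 cells, gave 999.9 CPM in DATP-like cells and 510 in the other base cells. It gave 5307 CPM in AT1-like cells and 119 in stromal cells. The water channel gene Aqp5 gave 315 CPM against 229, not past 1.5-fold, with 1434 in AT1-like cells. DATP-like cells had 0 UMIs of the type 1 genes of the definition in 68.7% of cells, against 81.0% of the other base cells. Among cells with 0 such UMIs, 4 of 6 early and 5 of 8 late AT1 genes were at least 1.5-fold higher in DATP-like cells.

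Growth factor and matrix lists are given beside shares of 5.48% higher and 2.57% lower over all genes. Of 7 EGF family genes 3 were higher and 0 lower. They were Areg, Hbegf, the heparin-binding EGF-like growth factor (67.7 CPM against 26), and betacellulin Btc (12.9 against 8.12). Of 16 integrin, laminin and matrix genes 6 were higher. Itgb6, the beta chain of the epithelial integrin that activates TGF-beta, gave 44.5 CPM against 15.8, with 274 in AT1-like cells. The metalloprotease inhibitor gene Timp3 gave 130 against 54.1. Of 9 TGF-beta and YAP target genes 4 were higher and 0 lower, among them the matricellular gene Cyr61 at 68.9 CPM against 27.7. Among 20 actin and cell shape genes 6 were higher and 0 lower (among them Tpm2, Myl12a, Cnn2, Flna and Tmsb10). Of 16 S100, annexin and galectin genes 7 were higher and 0 lower. With the abundant genes left out of the total, the higher and lower genes were 2 and 0 for the EGF family, 4 and 0 for matrix, 4 and 1 for TGF-beta and YAP targets, 4 and 0 for actin and 5 and 0 for S100, annexin and galectin genes. In that scaling they were 10 and 0 for transitional-state genes, 0 and 1 for the 14 surfactant genes left, 5 and 0 for early and 6 and 0 for late AT1 genes, 5 and 3 for NF-kB targets, 5 and 0 for interferon and 4 and 0 for glycolysis genes, beside 332 and 348 of 9447 genes in all. Junction genes were mostly within 1.5-fold, with 2 of 14 higher, Ocln (occludin, 36.4 CPM against 18.7) and Pkp3 (plakophilin 3, 27.7 against 17.6).

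Inflammatory and stress lists are again set beside 5.48% higher and 2.57% lower over all genes. Of 18 NF-kB targets and chemokines 5 were higher and 3 lower, with a median log2 ratio of 0.03. The adhesion gene Icam1 gave 603 CPM against 326, with 1278 in AT1-like cells, the chemokine gene Ccl20 gave 43.9 against 17.5 and Tnfaip2 gave 102 against 55.4, whereas the neutrophil chemokine gene Cxcl3 gave 19 against 37.8. Csf1 and Tnf were higher and Csf2 and Csf3 lower, each under 10 CPM. Il1r1 itself was measured by 10 UMIs in DATP-like cells, 3.01 CPM, against 2.23 in the other base cells and 12.7 in AT1-like cells. Of 16 interferon response genes 6 were higher and 0 lower, among them Isg15, Ifit1 and Ifit3. Of 11 antigen presentation genes 0 were past 1.5-fold in either direction. Among 22 glycolysis and hypoxia response genes 4 were higher and 0 lower, with a median of 0.42. These were Slc16a3, a lactate transporter gene (32.2 CPM against 13.3), the phosphofructokinase gene Pfkp (32.8 against 18.9), the oxidoreductase gene Ero1l (106 against 64.2) and Ndrg1. Of 14 p53 targets and growth arrest genes 1 was higher and 1 lower, near the shares over all genes. The cell cycle inhibitor gene Cdkn2b gave 53.9 CPM against 31.0 and Sesn2 13.5 against 21.3, and the inhibitor gene Cdkn1a gave 226 against 161 with 411 in AT1-like cells. Of 14 immediate early and heat shock genes Atf3 alone was higher, and of 13 epithelial and stress transcription factors Maff alone (56.0 against 27.4), with 0 lower in either list. Of 5 cell cycle genes 0 were past 1.5-fold, and of 13 genes of the primed AT2 state 1, Cxcl17, was higher. Of 7 club and secretory genes 3 were lower and 0 higher, Bpifa1, Reg3g and Scgb3a1, the last with 712 UMIs in 1 cell and reversed under some settings. All 10 genes of that list summed to 2125 CPM against 1943.

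**Figure D3:**
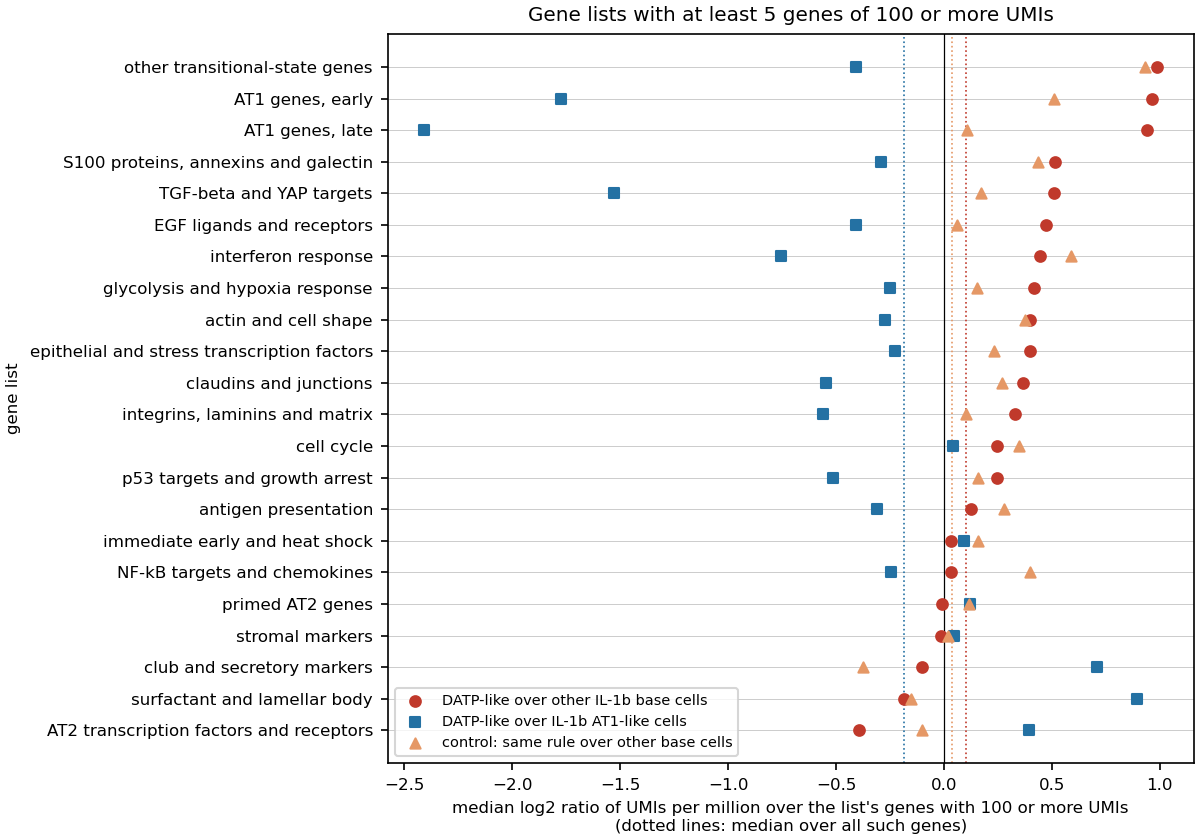
Median log2 ratio of CPM over each list's genes with at least 100 UMIs, for DATP-like over other base cells (circles), DATP-like over AT1-like cells (squares) and control cells taken by the same rule over other control base cells (triangles), with dotted lines at the median of all such genes. Transitional-state and AT1 lists lie near 1 for DATP-like over other base cells (0.99, 0.96 and 0.94), and the AT1 lists lie at -1.77 and -2.41 against AT1-like cells.

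Against AT1-like cells, 346 of 7216 genes (4.79%) were at least 1.5-fold higher in DATP-like cells and 1189 (16.5%) at least 1.5-fold lower, so 22.5% of the genes past 1.5-fold were higher. With the abundant genes left out of the total these were 576 and 703, or 45.0% higher. The median log2 ratio of all genes was -0.19, and -0.01 with that scaling. All 6 early AT1 genes and all 11 late ones with enough UMIs were lower in DATP-like cells, with medians of -1.77 and -2.41. Some of these, such as Cav1, reached the minimum of 100 UMIs through AT1-like cells alone and so had to be lower. Fibulin gene Fbln5 gave 14.7 CPM against 290, a ratio of 0.051, the semaphorin gene Sema3e 7.22 against 146 and the caveolin gene Cav1 1.5 against 39.2. The other lower genes named by the ranking were Pmp22, Tmod1, Tgfb2 and the sodium channel gene Scnn1g, with ratios from 0.0535 to 0.0713, and Cyp2b10. Each lower gene named held at most 49 UMIs in DATP-like cells and so passed the minimum of 100 UMIs only through AT1-like cells. Their direction follows from that filter, and their ratios are a description. Cyp2b10 had 0 UMIs in DATP-like cells and gave 41.1 CPM in AT1-like cells, and was at least 45.6-fold lower when 3 UMIs over the class are allowed, a bound without the counting error of AT1-like cells. The upper limit of its exact ratio interval was 0.0273. Of 19 surfactant and lamellar body genes 11 were higher than in AT1-like cells and 1 lower, with a median of 0.89. The 11 include Sftpc, whose minimum in base cells was part of the rule. Lyz1, a further lysozyme gene, gave 185 CPM against 13.4, a ratio of 13.8 (interval 10.5 to 18.6), with 406 UMIs in 1 DATP-like cell and 63.2 CPM without that cell. Dermokine Dmkn gave 471 against 72.1 and the anti-apoptotic gene Bcl2a1b 107 against 15.8. Also named were St8sia6, Klk13, Cd177, Lyz2 and Retnla. Of the higher genes named by the ranking, all but Dmkn and Lyz2 held at most 65 UMIs in AT1-like cells. These passed the minimum of 100 UMIs only through DATP-like cells. Their direction too follows from the filter, and their ratios are a description.

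Transitional-state genes did not separate DATP-like from AT1-like cells in one direction. Of the 14 genes 1, Areg, was higher in DATP-like cells and 5 were lower, with a median of -0.41. Over all genes in this comparison 4.79% were higher and 16.5% lower, with a median log2 ratio of -0.19. Of the 524 genes higher in DATP-like cells than in the other base cells, 373 had enough UMIs for both comparisons and 151 did not. A gene high in AT1-like cells passes this filter through them, so the shares below describe the genes that passed. For 193 of them AT1-like cells were at least 1.5-fold higher again, 163 were within 1.5-fold of AT1-like cells and 17 were higher in DATP-like cells than in either class. The 17 include the markers Sprr1a and Sfn, by which the cells were chosen, and Retnla, which rests on 1 cell. Of the 246 lower genes 45 could be compared, and 26 of these were lower still in AT1-like cells, 10 were higher there and 9 within 1.5-fold. Higher in DATP-like cells than in either class were Areg (ratio 1.63 over AT1-like cells, interval 1.49 to 1.79), Atf3 (1.80, interval 1.43 to 2.28), the nuclear receptor gene Nr4a1 (27.1 CPM against 12.7) and the matricellular gene Thbs1 (119 against 77.7). Nr4a1 and Thbs1 gave 14.9 and 50.1 CPM in the other base cells. Nr4a1 was found in 12.7% of DATP-like and 12.5% of AT1-like cells and Thbs1 in 46.4% and 45.6%, so their higher levels did not go with a larger share of cells. These 4 genes were chosen from the 17 after their values were seen.

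The same rule was applied to the control library, with its own top 15%. It had 874 base cells, of which 131 were taken, and the cutoff was 0.574 against 0.906 in the IL-1β library. Of the 874 control base cells, 17 (1.95%, exact Clopper-Pearson interval 1.14% to 3.10%) lay above the cutoff of the IL-1β library, and 22 (2.52%) did after all cells were thinned to 4600 UMIs. The control base cells had a median selection value of 0.366. IL-1β and the preparation of the library cannot be told apart with 1 library each. In the 131 control cells Cldn4 gave 6.38 CPM and Sprr1a 61.8, against 136 and 449 in DATP-like cells given IL-1β. Cycling cells were 14 of the 131 (10.7%) and 39 of the 743 other control base cells (5.25%), against 1 of 291 in the IL-1β library. In the control library 283 of 8011 genes (3.53%) were at least 1.5-fold higher in the chosen cells and 211 (2.63%) lower, with a median log2 ratio of 0.04. Of the 15 higher genes named in the IL-1β library 13 had enough control UMIs, of which 10 were at least 1.5-fold higher in the 131 cells. All 13 had a ratio above 1, as had 4418 of all 8011 genes, with 3593 below it. The control intervals of Clic5 (0.849 to 1.97) and Retnla (0.818 to 1.81) included 1. Anxa1 had a ratio of 3.99 in the control library and 2.75 in the IL-1β library, Atf3 3.6 and 4.75, and Areg 3.23 and 3.39. Areg gave 83.4 CPM in the control cells chosen, and Lgals3 gave 327 against 141 in the other control base cells. Tnip3, under the minimum with 28 and 18 UMIs, gave 13.7 CPM against 1.63. Of the 8 lower genes with enough control UMIs 0 were past 1.5-fold in the control library. Ratios were below 1 for 7 of them, Gjb1 being the exception. Among the 7, the intervals of Spink5, G0s2 and Cd177 included 1, with upper limits of 1.002, 1.11 and 1.49. Pigr, with fewer UMIs than the minimum there, gave 9.82 CPM (20 UMIs) in the control cells chosen against 3.99 (44 UMIs), a ratio of 2.46 (interval 1.37 to 4.27) on the other side of 1 from that in the IL-1β library. Lyz2 gave 21290 CPM against 23536 there. Of the AT1 lists, 2 of 6 early and 0 of 10 late genes were higher in the 131 control cells, against 5 of 6 and 6 of 9 in the IL-1β library. Ager gave 906 CPM against 895 in control cells. The difference between the libraries was not tested.

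Within the IL-1β base cells, levels were followed over 20 equal bins of the selection value, of which the upper 3 are DATP-like cells. From the bin just below the cutoff to the highest, Tnip3 gave 41.8, 54.0, 93.5 and 209 CPM, Areg 214, 225, 257 and 492, and Lgals3 357, 464, 495 and 1047. These genes were named for their levels in DATP-like cells, so their course along the selection value is a description. Over the same bins Atf3 gave 14.5, 33.0, 63.8 and 67.1 CPM, Clic5 10.9, 32.1, 27.9 and 71.5 and F3 38.1, 22, 40.4 and 132. Sftpa1 gave 12008, 9739, 8495 and 6663 CPM over the same bins and Pigr 201, 89.8, 139 and 69.8. Ager gave 749, 767, 930 and 1297 CPM. The stromal markers summed to 1947, 2017, 1998 and 2245 CPM, a smaller change than that of any of these genes.

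**Figure D4:**
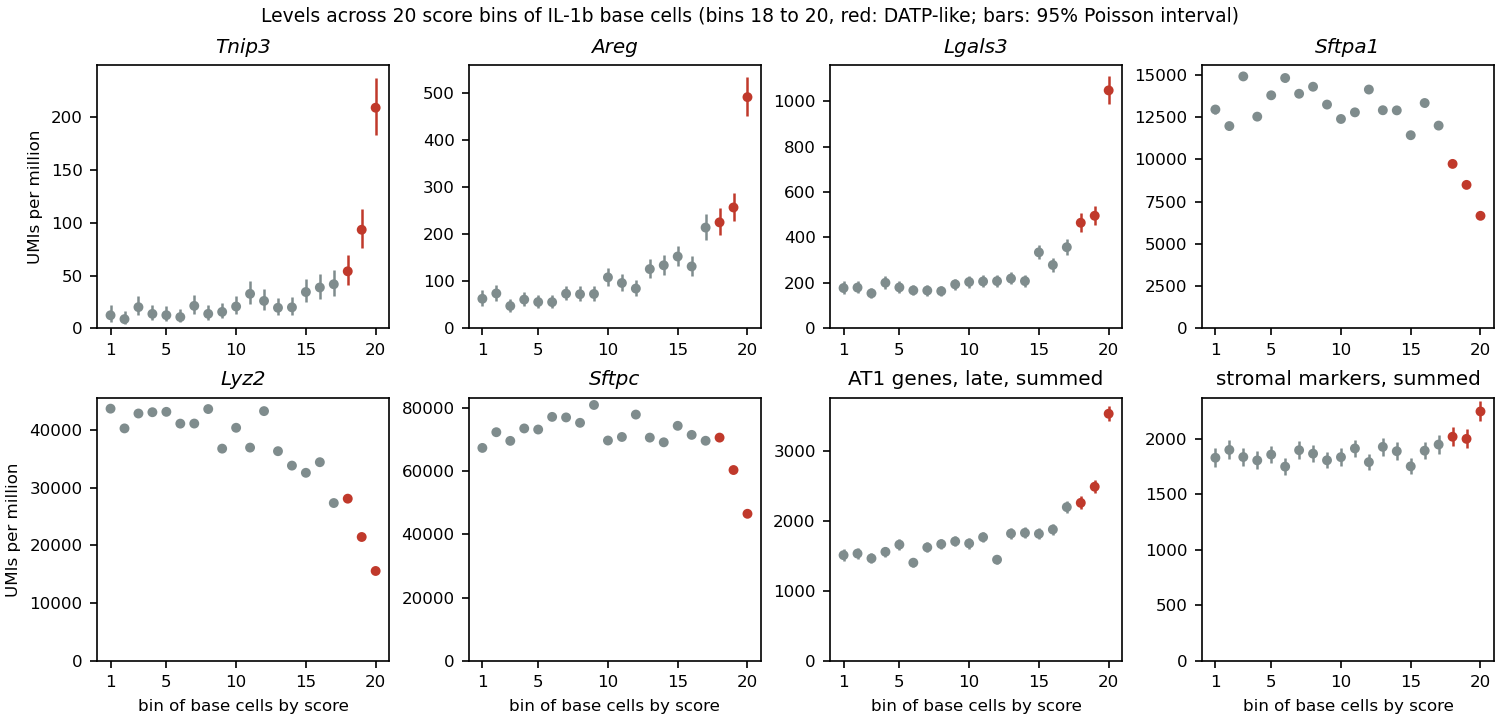
Summed level (CPM) of named genes and lists in 20 bins of base cells ordered by the selection value, with 95% Poisson intervals, where the upper 3 bins are the DATP-like cells. Tnip3, Areg and Lgals3 are highest in the last bin (209, 492 and 1047 CPM), Sftpa1 is lowest there (6663) and the stromal markers stay near 2000 CPM.

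DATP-like cells were also divided by Cldn4 and by Sprr1a, both markers of the rule. A cell without a UMI of 1 marker had to be higher in others to be chosen, so genes that vary with those markers differ with the division, and the values are a description. The 167 cells with a Cldn4 UMI (median 11304 UMIs) had 165 CPM of Tnip3 against 50.1 in the 124 without (median 9996.5), a ratio of 3.29 (interval 2.52 to 4.36). Plk2 gave 29.4 against 6.08 CPM and Tnfrsf12a 296 against 179, and Lgals3 543 against 866. Levels of the 5 markers are not compared between these groups. The 119 cells with a Sprr1a UMI had 419 CPM of Areg against 260 in the 172 without, 398 against 218 of S100a6 and 89.3 against 48.6 of F3. Gjb1 gave 16.8 CPM in the cells with Sprr1a against 39.4, and Prmt8 8.05 against 25.6. Some genes went opposite ways with the markers. Lgals3 had a ratio of 0.627 with Cldn4 and 1.36 with Sprr1a. F3 had 0.859 with Cldn4 (interval 0.651 to 1.14, which includes 1) and 1.84 with Sprr1a. Some other genes differed the same way with both markers. Tnip3 gave 146 against 101 CPM with and without Sprr1a, Anxa1 had a ratio of 1.48 with Cldn4 and 1.38 with Sprr1a, Ager 1.35 and 1.29, and Lyz2 0.843 and 0.780. These are descriptions of 1 library.

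The 15 nearest neighbours of each cell were found among base cells and AT1-like cells, over highly variable genes without those of the rule. Genes that vary with the selection markers were not left out. A larger share of DATP-like neighbours can thus follow from the selection, and the shares are a description. Of the neighbours of DATP-like cells 27.7% were DATP-like, 64.4% other base cells and 7.97% AT1-like. DATP-like cells were 13.0% of all cells used, and 8.17% of the neighbours of other base cells were DATP-like. Of the neighbours of AT1-like cells, 79.2% were AT1-like and 9.40% DATP-like. Other base cells were 73.5% and AT1-like cells 13.6% of all cells used, and 1.48% of the neighbours of other base cells were AT1-like. In 50 cells most neighbours were DATP-like, in 16 most were AT1-like and in 24 none was DATP-like. Over 8 clusters of the same cells, 119 DATP-like cells (40.9%) lay in a cluster of 423 cells and 63 (21.6%) in one of 272, and 14 (4.81%) lay in the cluster of 253 cells that held 231 AT1-like cells. No cluster consisted of DATP-like cells alone.

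**Figure D5:**
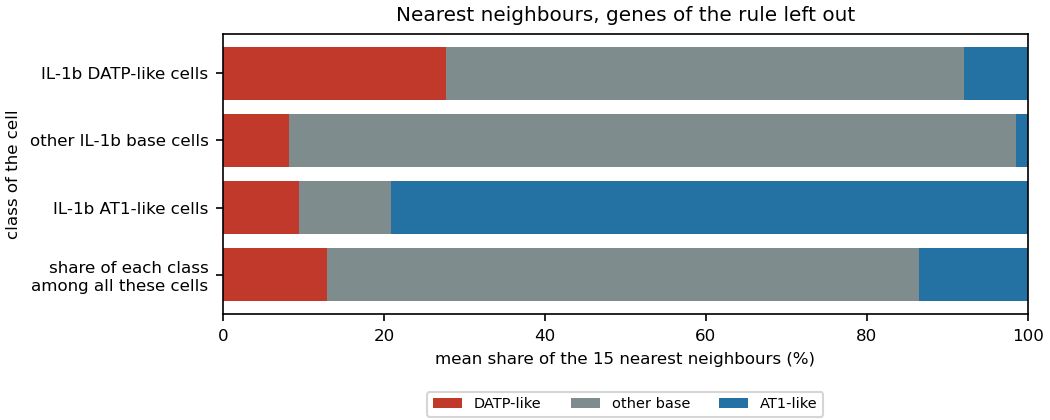
Mean share (percent) of DATP-like, other base and AT1-like cells among the 15 nearest neighbours of each class in the IL-1β library, over genes outside the rule, with the share of each class among all these cells in the lowest bar. DATP-like cells have 27.7% DATP-like neighbours, against 8.17% for other base cells and 9.40% for AT1-like cells.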

How the data were processed

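The authors deposited raw UMI counts per gene and cell barcode for each library. The submitters' processing notes name Cell Ranger, Scanpy 1.3.6 and GRCm38. Another mouse build is also listed by the submitters, and GRCm38 was taken for these libraries. Reads were not processed again, and no deposited value had been normalized. The cutoffs that the study's methods describe (more than 500 and fewer than 7000 genes, more than 2000 UMIs) removed 0 of the 291 DATP-like cells. The doublet caller scrublet marked under 0.5% of cells, too few to rely on, and doublets were not removed.

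Cells were chosen by the sums and the selection value given above, with ties broken by barcode order. Members and gene lists were chosen with earlier results of these data known. UMIs were summed over the cells of a class and divided by the UMIs of the class (CPM), with exact Poisson 95% intervals. Ratios carry exact conditional binomial intervals and shares exact Clopper-Pearson intervals. Genes with at least 100 UMIs over both classes were considered, and 1.5-fold was the size used. A count of 0 was taken to allow 3 UMIs over the class. With 1 library per condition there was no test, and cells are not replicates.

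The genes named are those of the rule, those of the lists, and those ranked by the limit of the ratio interval nearest 1. The ranking took 15 higher and 10 lower genes against other base cells and 8 and 8 against AT1-like cells, with a UMI in at least 10% of the cells of the higher class. Mitochondrial, ribosomal protein and predicted genes and genes of the rule were left out of it. The values of some list genes are not reported here. Neighbours were found on ln(1 + UMIs per 10000) over 2000 highly variable genes and 50 principal components. Cells were thinned to 4600 UMIs where depths were compared. Promoter windows were found for 21 of the 25 genes ranked against other base cells, and gene positions are those of GENCODE M21 on GRCm38. Python 3.11.15, numpy 2.4.6, scipy 1.17.1, pandas 2.3.3, scanpy 1.11.5, scikit-learn 1.9.0, leidenalg 0.10.2 and matplotlib 3.10.9 were used. The ratios and intervals were checked on simulated data. The alternatives changed the cutoff, the marker set, the base conditions, the depth, the scaling, the UMI minimum, the fold and the neighbours.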

Additional observations from a re-analysis of the deposited data

Results flagged for a closer look

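Gjb1, which encodes a gap junction connexin, lay on opposite sides of a ratio of 1 in the libraries. In the IL-1β library it gave 30.1 CPM in DATP-like cells and 67.0 in the other base cells, a ratio of 0.449 (interval 0.363 to 0.551). In the control library it gave 29.0 CPM in the 131 cells taken by the same rule and 27.1 in the others, a ratio of 1.07 (interval 0.794 to 1.42), which includes 1. Pigr, the gene of the immunoglobulin receptor, had a ratio of 0.427 in the IL-1β library and of 2.46 (interval 1.37 to 4.27) in the control library, the latter from 20 and 44 UMIs. The difference between the libraries was tested for neither gene.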

How the results depend on the processing

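Of 83 values of the comparisons under alternative settings, 62 stayed within 1.5 times the reported count or within its interval and 21 moved. Of 719 values of named genes, 597 stayed, 116 moved and 6 reversed. Retnla reversed to a log2 ratio of -2.09 with the top 10% of base cells, and to -1.96, -2.04 and -1.99 with Krt8, Krt19 or Sfn left out of the selection value. Scgb3a1 reversed to 1.57 with the top 20% and to 2.03 without Krt8. Retnla rests on 1 cell, and Scgb3a1 has 712 of the 1506 UMIs of the other base cells in 1 cell. With cells thinned to 4600 UMIs, 222 of 3246 genes were higher and 555 lower than in AT1-like cells, beside 346 and 1189 of 7216 without thinning. Without the abundant genes in the total, 332 genes were higher than in other base cells, and 576 were higher and 703 lower than in AT1-like cells. With at least 20 UMIs, 1034 and 739 of 12004 genes were past 1.5-fold against other base cells, and 809 and 2094 of 10641 against AT1-like cells. With at least 500 UMIs these counts were 164 and 54 of 5030, and 115 and 319 of 2219. With 2-fold they were 102 and 64, and 131 and 430. Control cells above the cutoff of the IL-1β library gave 1313 higher and 1698 lower genes, from 17 cells. The share of DATP-like neighbours was 25.6% with 30 neighbours and 23.8% after thinning. Leaving Sparc out of the stromal sum, chosen after seeing the data, gave 1983 base cells and 297 DATP-like cells, all 291 among them. Without the epithelial condition AT1-like cells were 445, and the 140 added had 92.7% of their stromal UMIs from Sparc. The 140 gave 9174 CPM of Ager against 5307 in the 305 cells used, 343 of Hopx against 218, and 14380 of Sftpc against 25104. The AT1-like class used is thus the part lower in these 2 type 1 genes. No paired analysis was possible because each condition is 1 library. Depth limits genes under 100 UMIs, which were not compared.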
